A study of Homo sapiens with 2 samples.

Results

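The genes described here encode the CEP proteins of the centrosome, the IFT proteins of intraflagellar transport and the BBS proteins, with 5 further centrosome genes, PCNT, PCM1, CNTRL, PLK4 and SASS6. They were chosen by name: every symbol that starts with CEP, IFT or BBS followed by a digit, plus those 5. This gave 63 genes of the 12918 in the table, 36 CEP, 14 IFT and 8 BBS genes and the 5 others, and 61 of them reached 1 FPKM (a fragment number divided by transcript length and library depth) in at least 1 library. The 2 that did not were BBS12, at 0.749 FPKM with si-NC and 0.664 with the silencer, and CEP295NL, at 0.586 and 0.867.

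The centrosome is built around a pair of centrioles, barrels of microtubules that are copied once per cell cycle, and the protein matrix around them nucleates the microtubules of the mitotic spindle. In a resting cell the older centriole can dock at the plasma membrane and grow a primary cilium, a sensory antenna. IFT-B and IFT-A complexes move cargo up and down the cilium, and the BBSome, a coat of BBS proteins, carries membrane receptors along with them. Many of these genes are known from inherited ciliopathies and microcephalies, and some centriole genes, PLK4 among them, are expressed mainly in dividing cells.

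The data were 1 RNA-seq library per group from MDA-MB-231 cells, an established line of human triple-negative breast cancer, taken 48 h after transfection. The control received si-NC, a negative control, and the other culture a Smart Silencer against the long noncoding RNA THAP7-AS1 (such reagents combine siRNAs with antisense oligonucleotides); both were therefore transfected, and the line is the only one sampled. The silenced library was identified by elimination from a column headed si-v, whose name is used below for that library. None of the 3 annotated THAP7-AS1 transcripts was listed, so the silencing could not be checked and every direction below depends on that assignment. The line's mesenchymal markers were high, with VIM at 344 FPKM with si-NC and 373 with the silencer and AXL at 259 and 204, while ESR1 was listed at 0 in both and CDH1 stood at 0.0845 and 0.122. ERBB2, low in this line, stood at 4.65 and 17.5. With 1 library per group there is no replicate check and no test; intervals given below cover counting error on approximate fragment numbers, about 7830000 with si-NC and 8320000 with the silencer over all listed transcripts.

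As a group these genes stood at nearly the same level in both libraries. Of the 61 genes 36 had a ratio below 0 (59%, against 49.6% of all genes). The log2 ratio, log2((si-v + 1)/(control + 1)) on FPKM summed over a gene's transcripts, had a median of -0.06, against 0.00 over the 11046 genes that reached 1 FPKM. Of the 61 genes, 2 were lower by 1.5-fold or more in the si-v library, where 8.91% of all genes were, and 5 were higher by that much, where 9.82% were. Both directions together made 11.5% of the group against 18.7% of all genes, so the group held no surplus of genes past this fold. At 2-fold 1 gene was lower and 0 higher, against 2.49% and 2.37% of all genes. The log2 ratios spread with an SD of 0.40 over the group and 0.49 over all genes, and 32 of the 61 lay within 0.25 of 0. Levels were modest for most, with a median of 6.91 FPKM with si-NC and 7.91 with the silencer. The plot of levels by role shows the paired values.

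**Figure D1:**
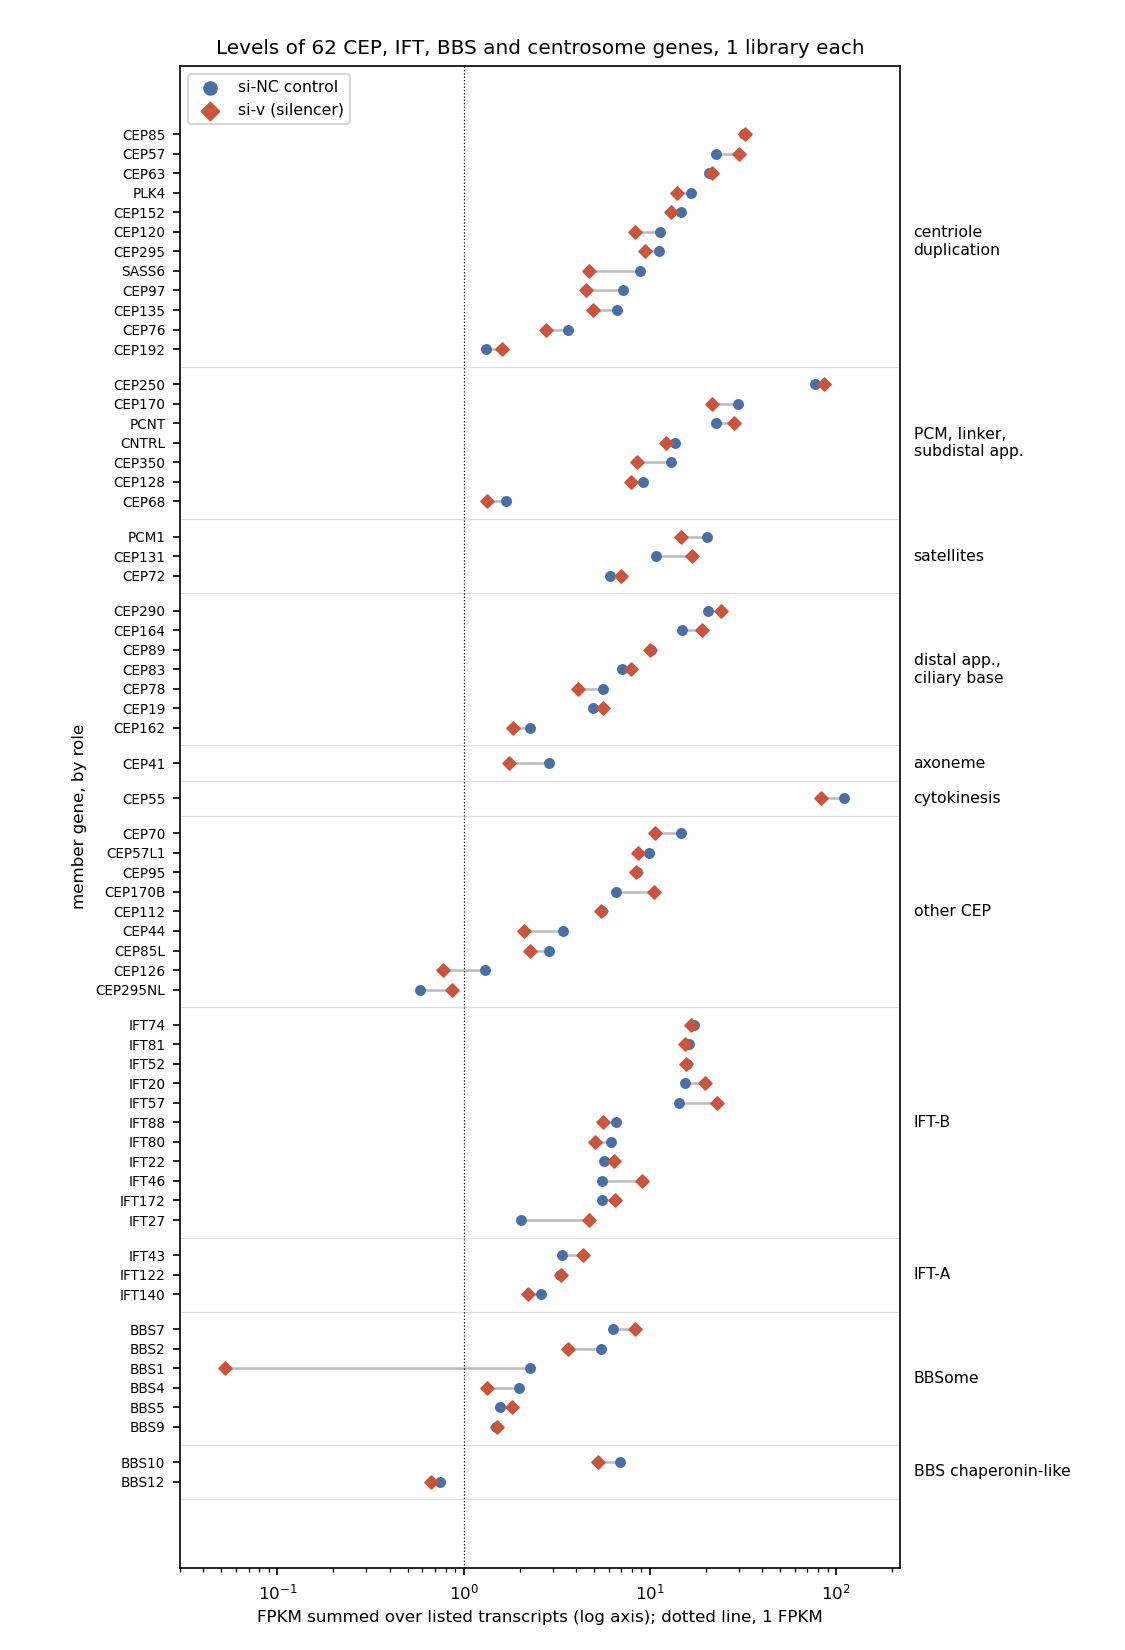
FPKM summed over listed transcripts (log axis) of 62 of the 63 genes in the control (circles) and the si-v library (diamonds), 1 library each, grouped by the role of the protein. Most pairs nearly touch; BBS1, at 2.26 and 0.0521 FPKM, is the widest pair, and CEP55 and CEP250 are the most abundant genes.

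The 7 genes past 1.5-fold came from different parts of the organelle. BBS1, a subunit of the BBSome that binds the small GTPase which recruits it to membranes, stood at 2.26 FPKM with si-NC and 0.0521 with the silencer (log2 ratio -1.63). These levels rest on about 77 and 2 fragments, a fragment log2 ratio of -5.30 (95% counting interval -8.45 to -3.48). SASS6, which forms the cartwheel around which the new centriole is built, stood at 8.82 and 4.73 (-0.78), on about 376 and 218 fragments (interval -1.15 to -0.66). These were the only members lower by 1.5-fold with the 1 FPKM added to both values; with a pseudocount of 0.1 there were 7, against 12% of all genes, with CEP97, CEP44, CEP41, CEP126 and CEP350 added. In RNA from a whole culture, fewer cells in a given state and less RNA per cell cannot be told apart. Of the 5 higher genes 3 encode IFT-B subunits. IFT27, a small GTPase of the IFT-B complex needed for exit of the BBSome from the cilium, stood at 2.03 and 4.69 (0.91), on only about 24 and 61 fragments (interval 0.53 to 1.98). IFT57 stood at 14.4 and 22.8 (0.63), on 506 and 867 fragments (interval 0.50 to 0.82), and IFT46, a core IFT-B subunit, at 5.56 and 9.07 (0.62), on 88 and 127 fragments (interval 0.01 to 0.82). The other higher genes were CEP131, a protein of centriolar satellites, at 10.8 and 16.9 (0.60), and CEP170B, a relative of the appendage protein CEP170, at 6.59 and 10.5 (0.60).

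Not all 7 held their side of the 1.5-fold line when the values were read in other ways. BBS1, IFT27 and IFT57 were past it in each of the 5 readings plotted for these genes. BBS1, however, reached 1 FPKM only in the control, where it was higher. SASS6 was at -0.50 once the median of genes of like GC content was subtracted. CEP131 and CEP170B, whose transcripts have 65.5% and 66.2% GC, came to 0.29 and 0.27 in that reading. IFT46 was at 0.34 on fragments per gene, and at 2.49 for its most abundant transcript. Read from the most abundant transcript, 7 members were lower by 1.5-fold (14.2% of all genes) and 7 higher (14%). BBS1 had 2 of 7 annotated coding transcripts listed, so its level may lack reads assigned to others, which was not tested. Only SASS6 and IFT57 among the 7 had a single listed transcript, so that their level did not depend on a division of reads among listed isoforms.

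**Figure D2:**
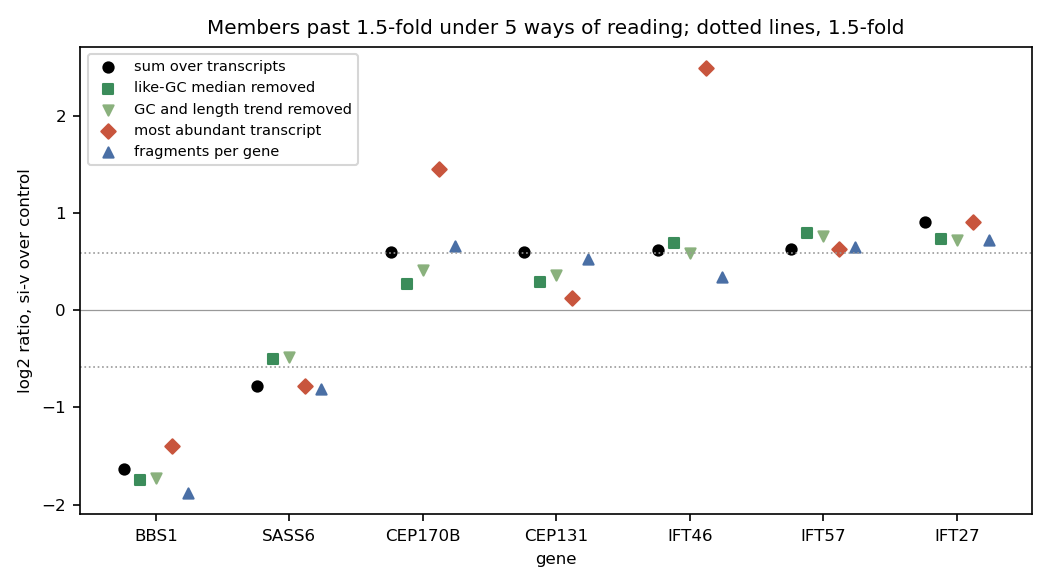
Log2 ratio, si-v library over control, of the 7 genes past 1.5-fold under 5 readings of the same 2 libraries (dotted lines, 1.5-fold). BBS1, IFT57 and IFT27 stay outside the lines in each reading. IFT46 and CEP170B are highest when read from the most abundant transcript alone (2.49 and 1.45), chosen by the sum over both libraries.

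Among the 12 genes of centriole duplication, 8 had a ratio below 0, with a median of -0.23 and 1 gene (SASS6) past 1.5-fold. PLK4, the kinase that starts the formation of a new centriole, stood at 16.6 FPKM with si-NC and 14.0 with the silencer (log2 ratio -0.23), on about 639 and 524 fragments (interval -0.57 to -0.23). With the median of genes of like GC content subtracted PLK4 was at -0.05, and from its most abundant transcript at -0.04. Its recruiters at the parent centriole were CEP152, at 14.7 and 13.0 (-0.16), and CEP192, at 1.32 and 1.61 (0.17), and the CEP152 partner CEP63 stood at 20.7 and 21.5 (0.05). CEP135, a cartwheel protein, stood at 6.67 and 4.94 (-0.37), and CEP120, a protein of centriole elongation, at 11.3 and 8.30 (-0.41). CEP97, which with CCP110 caps the growing centriole, lay just inside the 1.5-fold line, at 7.18 and 4.55 (-0.56). CEP57, a pericentriolar matrix protein, had the highest log2 ratio of the 12, at 22.7 and 30.1 FPKM (0.40), though on fragments it was -0.05 (interval -0.21 to 0.11). The remaining members of this role were CEP85 (0.02), CEP295 (-0.22) and CEP76 (-0.29).

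Pericentriolar matrix, linker and subdistal appendage genes lay within 1.5-fold, with 5 of 7 below 0. PCNT, the scaffold that anchors gamma-tubulin complexes in the matrix, stood at 22.7 FPKM with si-NC and 28.2 with the silencer (log2 ratio 0.30, fragment interval 0.25 to 0.40). CEP250, the linker that ties the centriole pair together, was at 76.6 and 86.1 (0.17). On about 5130 and 7654 fragments its log2 ratio was 0.46 (interval 0.41 to 0.51), so fragments and summed FPKM differ in size for this gene of 8 listed transcripts. CNTRL, a protein of the mother centriole, stood at 13.6 and 12.3 (-0.13), CEP170 at 29.8 and 21.5 (-0.45), CEP128 at 9.19 and 7.91 (-0.19) and CEP68 at 1.68 and 1.34 (-0.20). CEP350, a large centriole-associated protein, was at 13.0 and 8.49 (-0.56), and at -0.30 on fragments per gene. Of the satellite proteins, PCM1, the scaffold of these granules, stood at 20.3 and 14.8 (-0.44), with -0.15 on fragments per gene, CEP72 at 6.09 and 7.03 (0.18), and CEP131 is given above.

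The genes of the distal appendages and ciliary base had a median of 0.14, with 4 of 7 above 0 and none past 1.5-fold. CEP290, the transition zone protein whose loss causes several ciliopathies, stood at 20.5 FPKM with si-NC and 24.1 with the silencer (0.22), and at 0.50 above genes of its low GC content, 35.5%. The appendage genes were CEP164 at 14.8 and 19.0 (0.34), CEP83 at 7.09 and 7.91 (0.14) and CEP89 at 10.1 and 10.0 (-0.01). On about 475 and 406 fragments, though, the log2 ratio of CEP89 was -0.34 (interval -0.54 to -0.15). CEP19 stood at 4.97 and 5.63 (0.15), CEP78 at 5.57 and 4.11 (-0.36) and CEP162 at 2.28 and 1.84 (-0.21). CEP41, which acts in tubulin glutamylation of the axoneme, stood at 2.87 and 1.75 (-0.49). CEP55, which acts in the final cut of cytokinesis rather than in the cilium, was the most abundant gene of the group by FPKM in the control, at 110 and 82.9 FPKM (-0.40); in the si-v library CEP250 was above it. It rests on about 3163 and 2588 fragments, an interval of -0.48 to -0.33. The other CEP genes ranged from CEP44, at 3.41 and 2.11 (-0.51), to CEP170B. Of the 8 measured 7 were below 0, where 49.6% of all genes were, and these 7 ran from -0.51 to -0.01. Among them were CEP70 at 14.8 and 10.6 (-0.44) and CEP126 at 1.30 and 0.772 (-0.37), which reached 1 FPKM only in the control. With the median of genes of like GC content subtracted, the median of the 8 was -0.01 in place of -0.21.

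The IFT genes had a median log2 ratio of 0.09, with 8 of 14 above 0. Beside IFT57, IFT46 and IFT27, the IFT-B members were close to level: IFT52 stood at 15.8 FPKM with si-NC and 15.6 with the silencer (-0.02), IFT74 at 17.2 and 16.6 (-0.05) and its partner IFT81 at 16.1 and 15.4 (-0.06). IFT88, the subunit mutated in a classical mouse model of polycystic kidney disease, was at 6.60 and 5.57 (-0.21), and IFT80 at 6.16 and 5.06 (-0.24), the lowest of the family. IFT20, which also acts at the Golgi, stood at 15.5 and 19.9 (0.34), IFT172 at 5.51 and 6.53 (0.21) and IFT22 at 5.69 and 6.42 (0.15). The 3 IFT-A genes were IFT43 at 3.37 and 4.37 (0.30), IFT122 at 3.28 and 3.34 (0.02) and IFT140 at 2.59 and 2.22 (-0.16). Within IFT-B the ratios ran from -0.24 to 0.91, but no subunit had a fragment interval wholly below 0. For IFT80 that interval was -0.36 to 0.16, and with the median of genes of like GC content subtracted its ratio was 0.03.

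Of the 8 BBS genes 5 were low, with BBS1, BBS4, BBS5, BBS9 and BBS12 at or below 2.26 FPKM in both libraries, and BBS2, BBS7 and BBS10 were higher. Beside BBS1, the BBSome subunits were BBS2 at 5.48 FPKM with si-NC and 3.64 with the silencer (-0.48), BBS4 at 1.99 and 1.33 (-0.36), BBS5 at 1.57 and 1.82 (0.13), BBS7 at 6.35 and 8.35 (0.35) and BBS9 at 1.5 in both (0.00). The fragment interval of BBS4 was -0.98 to 0.33, that of BBS9 -0.57 to 0.63 and that of BBS5 -0.34 to 0.69, so differences of a size near 1.5-fold were not detectable at this depth for these 3 genes. BBS10, a chaperonin-like protein that helps to assemble the BBSome, stood at 6.91 and 5.29 (-0.33, interval -0.64 to -0.12).

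Counting error alone was exceeded by many of these genes, as by most genes in the table. The 95% counting interval of the fragment ratio left out 0 on the low side for 24 of the 61 genes (39.3%, against 30.8% of all genes) and on the high side for 10 (16.4%, against 29.4%). These intervals do not cover variation between cultures or the division of reads among transcripts.

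The direction of the small differences followed GC content. Transcripts of this group had a median GC content of 42.1%, against 48.8% over all genes, and a median length of 3368 bases against 2707. Over all 11046 genes the log2 ratio was lower where GC content was lower, with a median of -0.22 under 40% GC, -0.12 from 40 to 45% and 0.10 at 45% or more. The members gave -0.24 over 18 genes, -0.19 over 19 and 0.16 over 24 in the same ranges. Pearson's r of the log2 ratio with GC content was 0.40 across the 61 genes and 0.29 across all genes, a description across genes that share the same 2 libraries. The 500 genes nearest in GC content to each member had a median ratio whose own median over the members was -0.14. With that value subtracted gene by gene the group's median was 0.03, and 1 gene was lower by 1.5-fold (BBS1; 8.28% of all genes) and 3 higher (IFT27, IFT57 and IFT46; 7.79%). Centriole duplication genes then had a median of -0.06 in place of -0.23, and IFT-B genes 0.18 in place of 0.15. The part of GC content in any single difference was not tested.

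**Figure D3:**
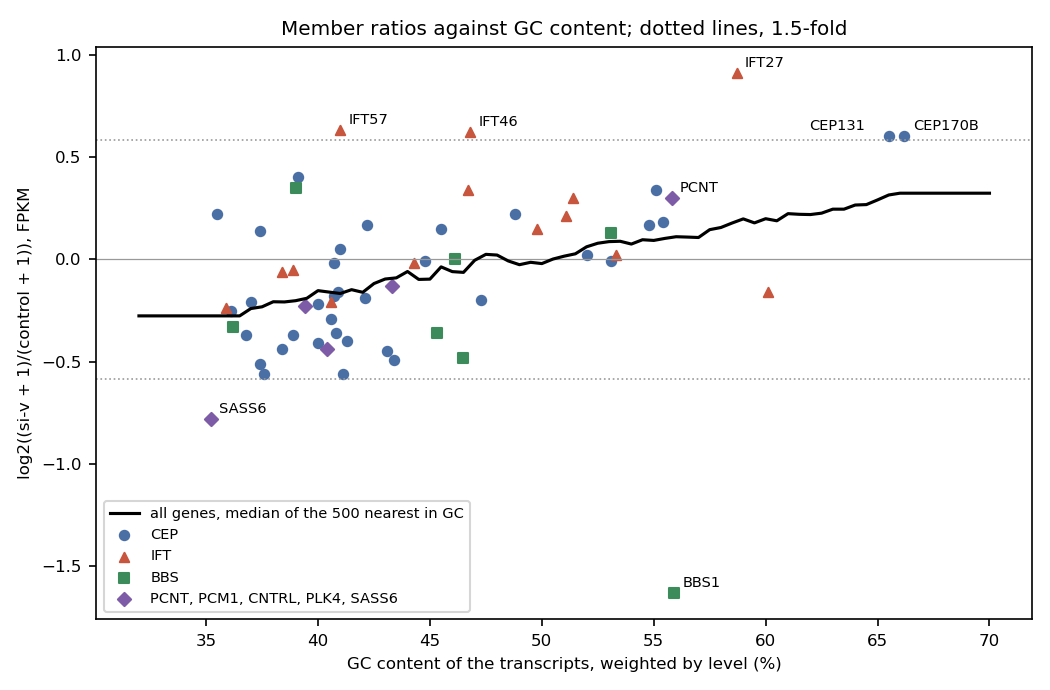
Log2 ratio of the 61 genes that reached 1 FPKM against the GC content of their transcripts in percent, by family, with the running median of all genes (line; 500 nearest genes) and 1.5-fold (dotted). Members under 45% GC mostly lie below 0, as does the line there; SASS6 has the lowest GC content, 35.2%.

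Sums over transcripts hid larger differences between isoforms. In 15 of the 51 members with 2 or more listed transcripts (29.4%) the most abundant transcript was another one in the si-v library than in the control, close to the 26.4% over all such genes. Of the members' 48 transcripts that reached 5 FPKM in a library, 4 stood at 0.5 or less in the other, 8.33% against 5.35% of the 10791 listed transcripts of all genes that reached that level. They belonged to PLK4, CEP152 and CNTRL, whose sums differed little. In PLK4, ENST00000270861 stood at 8.08 FPKM with si-NC and 0.242 with the silencer and ENST00000514379 at 0 and 5.47, while ENST00000507249 was level at 8.51 and 8.26. In CEP152, ENST00000380950 stood at 9.69 and 0.422, ENST00000325747 at 3.61 and 7.67 and ENST00000399334 at 1.38 and 4.91. In CNTRL, ENST00000373855 stood at 5.93 and 0.126 and ENST00000238341 at 1.26 and 4.45. IFT46 showed the same kind of exchange below that limit, with ENST00000534156 listed at 0 with si-NC and 4.61 with the silencer and ENST00000531939 at 2.35 and 0.186.

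**Figure D4:**
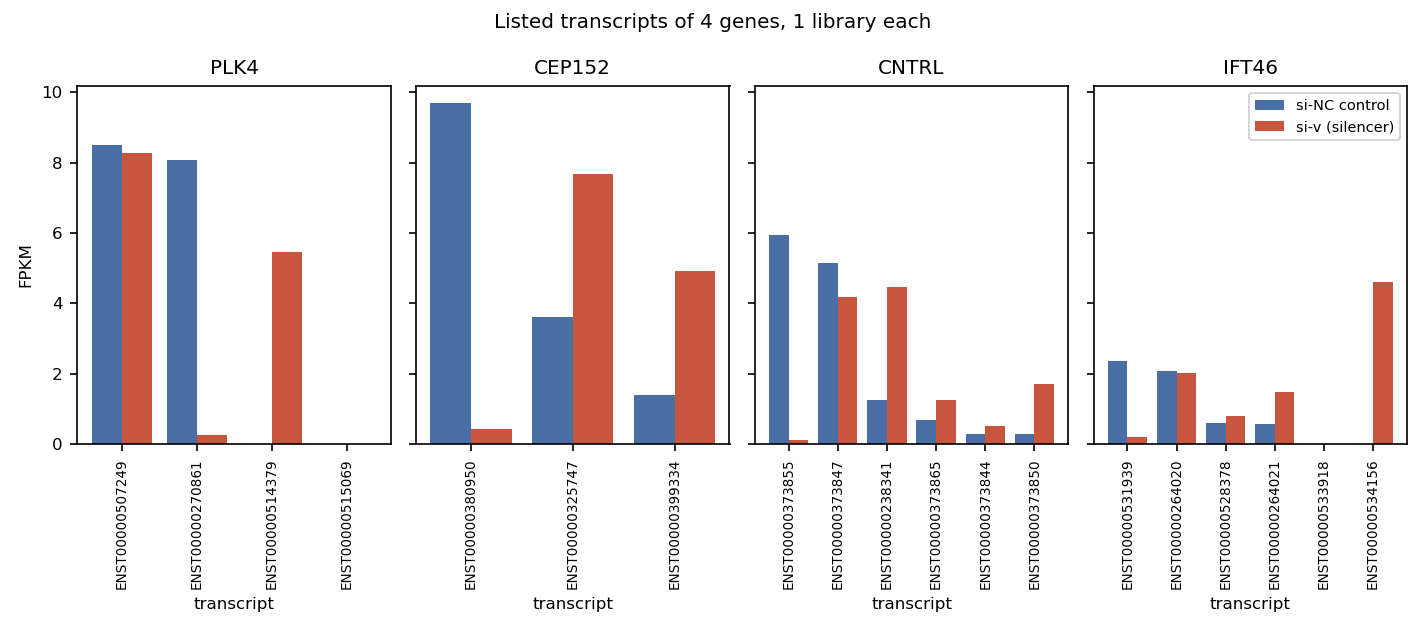
FPKM of each listed transcript of PLK4, CEP152, CNTRL and IFT46 in the control and the si-v library, 1 library each. Transcripts that are tall in 1 library and near 0 in the other, such as ENST00000380950 of CEP152 at 9.69 and 0.422, stand beside others that do the reverse.

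Exon junctions that tell some isoforms of PLK4 and CEP152 apart are printed here. Reads across them, like reads in other sequence that differs, can divide the gene's reads. The PLK4 junctions set ENST00000507249 apart but do not separate ENST00000270861 from ENST00000514379. PLK4 lies on chromosome 4, plus strand, and its exon 5 ends at 127886728 in ENST00000270861 and ENST00000514379 and at 127886626 in ENST00000507249, before exon 6 starting at 127887396 (GENCODE release 29, GRCh38; all coding). CEP152 lies on chromosome 15, minus strand, and a coding exon at chr15:48797301-48797579 is held by ENST00000380950 and ENST00000399334 and skipped by ENST00000325747; a later one at chr15:48748443-48748610 is skipped by ENST00000399334. In each line the 15 lower-case bases end the upstream exon and the 15 capitals begin the downstream exon, from the GENCODE transcript sequences.
PLK4 long exon 5: taacaatcaagcactCTCCAATCATCTTTG
PLK4 short exon 5: tgaaaatgaagagagCTCCAATCATCTTTG
CEP152 first cassette exon included: tctcaaagtgtaaatGGCTATAATGAAATT
CEP152 first cassette exon skipped: tctcaaagtgtaaatGGTCCCAGTTGTCAA
CEP152 later cassette exon included: cagaagcagaagctgATAAGAAAAAGGTCC
CEP152 later cassette exon skipped: cagaagcagaagctgAAGAGAATAATAAAG

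Summed over the transcripts that hold each junction, the long form of PLK4 exon 5 stood at 8.08 FPKM with si-NC and 5.71 with the silencer (log2 ratio -0.44) and the short form at 8.51 and 8.26 (-0.04). For CEP152 the form with the first cassette exon stood at 11.1 and 5.33 (-0.93) and the form without it at 3.61 and 7.67 (0.91). The form with the later exon stood at 13.3 and 8.10 (-0.65) and the form without it at 1.38 and 4.91 (1.31). ENST00000270861 and ENST00000514379 share the long PLK4 form. Of their 50-base windows 4.64% and 4.55% occur in no other listed PLK4 transcript. For CEP152 that share was 5.85% in ENST00000380950, 0.931% in ENST00000399334 and 23.1% in ENST00000325747. The levels of the PLK4 and CEP152 isoforms therefore rest on a small share of the sequence for all but ENST00000325747, and junction reads were not used here.

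Promoters of 55 members were matched by symbol in the RefSeq table (GRCh38.p14), and the 250 bases before the gene start were searched on both strands for 3 motifs. The X-box, bound by RFX factors at many ciliary genes, was searched by its arm GTTGCC, the CHR element of cell cycle promoters by the letters TTTGAA, and the CCAAT box by its name's letters. The X-box arm was present in 15 of the 54 measured and matched members (27.8%), against 14.2% of 8875 measured genes and 10.2% of all promoters in the table. The CHR letters were in 10 (18.5%, against 11.8% of measured genes and 13.3% of all promoters) and the CCAAT letters in 29 (53.7%, against 42.3% and 32%). The median log2 ratio of members with the X-box arm was -0.05 and of those without it -0.16; with and without the CHR letters it was -0.09 and -0.15, and with and without the CCAAT letters -0.01 and -0.21. Over the 8875 measured genes these medians were -0.01 and 0.00 for the X-box arm and -0.07 and 0.01 for the CHR letters. For the CCAAT letters they were 0.01 and 0.00. GC content was not removed in this split, and a link of any motif to the ratios was not tested. A match describes the letters, not a bound site. The arm was present in SASS6, IFT46 and IFT27, which include both directions of difference, and these windows are shown with that of the CHR letters in CEP55, the member with the highest FPKM in the control; capitals mark the motif.
SASS6, chr1:100133113-100133152, minus strand: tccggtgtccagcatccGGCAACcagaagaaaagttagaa
IFT46, chr11:118566105-118566144, minus strand: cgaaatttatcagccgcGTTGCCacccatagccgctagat
IFT27, chr22:36776138-36776177, minus strand: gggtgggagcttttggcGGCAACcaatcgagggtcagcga
CEP55, chr10:93496479-93496518, plus strand: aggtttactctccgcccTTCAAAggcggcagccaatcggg

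In IFT27 the arm shares 1 base with a CCAAT box and ends 35 bases before the gene start; in SASS6 and IFT46 it ends 199 and 190 bases before it.

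Genes of the same organelles that carry other names were also centred near 0. Of 100 genes in 7 lists, 96 reached 1 FPKM, with a median log2 ratio of -0.07, 9 lower and 9 higher by 1.5-fold, shares close to the 8.91% and 9.82% of all genes. IFT and BBSome proteins under other names had a median of 0.00, with 1 of 13 past 1.5-fold: WDR19, an IFT-A subunit, at 2.13 FPKM with si-NC and 0.506 with the silencer (-1.05), while TRAF3IP1 stood at 7.25 and 9.17 (0.30), TTC8 at 12.2 and 14.7 (0.25) and TTC21B at 5.71 and 4.10 (-0.39). Of 11 IFT motor genes 2 were lower, the dynein-2 light chain gene TCTEX1D2 at 7.68 and 3.19 (-1.05) and the kinesin-2 gene KIF3A at 15.6 and 9.68 (-0.64), and 1 higher, DYNC2LI1 at 3.48 and 5.77 (0.60); DYNLL1 stood at 162 and 185 (0.19). Of 20 transition zone genes 3 were lower and 2 higher, from TMEM17 at 1.14 and 0.0873 (-0.97) to TMEM67 at 1.24 and 2.69 (0.72) and TCTN1 at 0.750 and 2.17 (0.86). TMEM17 rested on about 22 and 2 fragments and TCTN1 on 19 and 54, and each reached 1 FPKM only in the library where it was higher. WDR19, on about 71 and 24 fragments, likewise reached 1 FPKM only in the control. From its most abundant transcript TCTN1 was at -0.15, and the fragment interval of TMEM67 was -0.02 to 0.99.

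Of 17 further centriole genes 2 were lower, FGFR1OP at 13.0 FPKM with si-NC and 3.67 with the silencer (-1.59) and C2CD3 at 13.4 and 8.38 (-0.62), and 1 higher, CCP110, the partner of CEP97, at 4.66 and 7.82 (0.64), with POC1A at 20.4 and 30.4 (0.55). The fragments of FGFR1OP, about 534 and 388, differ far less than its FPKM (interval -0.77 to -0.38). Gamma-tubulin and matrix genes had a median of -0.16, with SSX2IP at 17.1 and 10.9 (-0.61) and MZT1 at 16.1 and 11.2 (-0.49) lowest and MZT2B at 30.1 and 46.3 (0.60) and NINL at 5.31 and 8.69 (0.62) highest of 15; 1 was lower and 2 higher by 1.5-fold. Appendage and linker genes had a median of 0.26 over 12 genes, 2 of them higher and 0 lower by 1.5-fold, from ANKRD26 at 14.8 and 9.83 (-0.54) and NIN at 33.3 and 26.2 (-0.33) to LRRC45 at 7.12 and 11.2 (0.59) and CROCC, the rootlet protein, at 2.14 and 4.66 (0.85). Their median was 0.18 with the like-GC median removed and 0.09 from the most abundant transcript. With the like-GC median removed, ANKRD26 was at -0.30, LRRC45 at 0.26 and CROCC at 0.53. In the gamma-tubulin list SSX2IP was then at -0.37 and MZT2B at 0.28. The augmin subunits, which bind to spindle microtubules, had a median of 0.06 over 8 genes, 1 of them past 1.5-fold, with HAUS7 at 0.877 and 7.76 (2.22), HAUS3 at 11.4 and 17.5 (0.58), HAUS8 at 15.1 and 13.2 (-0.19) and HAUS6 at 15.9 and 12.8 (-0.30). HAUS7 rested on about 11 and 123 fragments (interval 2.48 to 4.41) and reached 1 FPKM only in the si-v library, where it was higher. For HAUS3 the fragments, about 484 and 524, gave an interval of -0.18 to 0.18, so its summed FPKM and its fragments gave different readings.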

How the data were processed

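The submitters' processing notes name cutadapt, HISAT2 2.0.5, StringTie and the build hg19, without roles or settings. The authors' deposited table lists 39605 transcripts with a value in each of 2 libraries, read here as FPKM from the values, since the header names no unit. For the annotation release, strand setting and filters the entry is: not given in the sources used here. Whether reads of a gene and of an overlapping antisense gene were kept apart is therefore not known. Transcripts were matched without version to GENCODE release 29 (GRCh38; 99.5%; names, length and GC content only) and summed per gene. Genes needed 1 FPKM in a library; the log2 ratio used a pseudocount of 1, which understates low genes. Past a fold means 1.5-fold on that scale. The worth of 1 fragment was read from a peak of FPKM times length, at 91.1 and 84.1, among the lowest values of genes with 1 listed transcript; the 95% Clopper-Pearson intervals (exact) use fragments obtained this way, which are approximate. For the GC check the median ratio of the 500 genes nearest in GC content was subtracted, or a cubic trend in GC content and log2 length. Scripts used Python 3.11.15, numpy 2.4.6, scipy 1.17.1 and pandas 2.3.3 and were tested on simulated data. The members and lists were chosen with earlier results of these data known. Named were all members, and of each list the 2 lowest and 2 highest, except a few genes that are not reported here by name. No p-value was computed, with 1 library per group.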

Additional observations from a re-analysis of the deposited data

How the results depend on the processing

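The median log2 ratio of the members, -0.06, was -0.02 with a filter of 5 FPKM (45 members), -0.04 from the most abundant transcript, 0.03 with the like-GC median removed and 0.01 after correction for GC content plus length, and between -0.08 and -0.05 in the other settings. For the counts that follow, the share of all genes past the same fold is in parentheses. The number lower by 1.5-fold, 2 (8.91%), was 7 with a pseudocount of 0.1 (12%) and 1 with the 5 FPKM filter (8.67%). It was 7 from the most abundant transcript (14.2%) and 4 on fragments per gene (8.88%). With the like-GC median removed it was 1 (8.28%), as after correction for GC content plus length (8.22%) and at 2-fold (2.49%). The number higher, 5 (9.82%), was 7 from the most abundant transcript (14%) and 3 on fragments per gene (9.13%). With the like-GC median removed it was 3 (7.79%), as after correction for GC content plus length (7.39%), and at 2-fold it was 0 (2.37%). Among 14 members read singly, 99 of 123 alternative values lay within the counting interval's reach of the first value and 24 moved further. Of those past 1.5-fold 0 changed sign. The 99 are no measure of stability, because a change of filter cannot alter a single gene's ratio and rescaling a whole library hardly does. All 24 moves came from the most abundant transcript, fragments per gene or a GC correction. No paired analysis was possible because each group has 1 library. Depth limits BBS1, IFT27, IFT43, IFT22, BBS4, BBS5 and BBS9 most, each with under 80 fragments in both libraries.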
